A study of Mus musculus with 6 samples.

Results

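The genes described here act in G2 and mitosis, and their messenger RNA was followed in a mouse B-cell line, 230-238, with and without added FOG1. The list holds 40 genes: cyclins and regulators of the cyclin-dependent kinase, mitotic kinases, spindle checkpoint and anaphase-promoting complex genes, kinetochore genes, kinesins, spindle and cytokinesis factors, and genes of chromosome structure. A gene was taken at a probe set whose annotation gives its symbol and no other, and at the brightest such probe set over the 6 arrays where it had several. That gave 39 of the 40 genes, among 19937 genes measured in this way. The remaining gene, the cyclin gene Ccnb1, had no such probe set and was not analysed here.

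Both groups were cells of line 230-238, infected with a plasmid that encodes GFP alone (3 arrays) or GFP and FOG1 together (3 arrays). FOG1, the product of Zfpm1, is a cofactor through which GATA factors act in blood cells. All cells were cultured in RPMI1640 medium for 3 days after infection, sorted for GFP and cultured for 4 more days before RNA isolation. The promoter that drives the plasmid's genes is not given in the sources used here, and neither is whether the 3 replicates, which the labels call biological, came from separate infections. The p-values therefore reflect only the spread among these 6 samples, which may be technical.

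Entry into mitosis is driven by a cyclin-dependent kinase bound to cyclin A or cyclin B, and exit from it by the anaphase-promoting complex, a ubiquitin ligase that the spindle checkpoint holds back until every kinetochore is attached to the spindle. Most genes of this programme are transcribed in a wave that starts in S phase and peaks in G2 and mitosis. The DREAM repressor complex and the activators B-MYB and FOXM1 act on them through a promoter element called the cell cycle homology region, often beside CCAAT boxes bound by the factor NF-Y. In a culture of dividing cells their messenger RNA depends on how many cells are in G2 and mitosis and on how much RNA each such cell holds, and these cannot be told apart in RNA from bulk samples.

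Zfpm1 separated the arrays by their labels, at 9.41, 9.49 and 9.43 log2 units with GFP alone and 10.21, 10.16 and 10.17 with FOG1 (limma with Benjamini-Hochberg, adjusted p = 0.00382). Of 15 measured B-cell markers 14 reached the median signal of all probe sets, Pax5 and Ebf1 among them, while 1 of 10 T and NK cell, 1 of 10 myeloid and 1 of 6 erythroid and megakaryocyte markers did. Fibroblast and stromal markers reached it in 6 of 10 cases, and several of them differed widely between the FOG1 arrays, as given beside the values by array.

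No G2 or mitosis gene passed the threshold of an adjusted p under 0.05 in either direction, and nearly all had a slightly higher mean with FOG1. Of the 39 genes, 0 were called higher and 0 lower (limma with Benjamini-Hochberg over 34760 probe sets), where 0.104% of all probe sets were called higher and 0.121% lower. With 1 probe set per gene, 0.0602% of genes were called higher. The log2 change, FOG1 minus GFP alone, was above 0 for 38 of 39 genes, against 46.2% of all probe sets and 45.8% of genes. That count was 34 after cyclic loess normalization, 35 after quantile normalization and 39 after centring each array on its median. The median log2 change was 0.11, or 1.08-fold, beside -0.01 over all probe sets. The changes ran from -0.0089 for Anln to 0.25 for Nuf2, that is from 0.994-fold to 1.19-fold.

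The largest upper end of a 95% interval was 0.38, or 1.30-fold, at Prc1. At an unadjusted p under 0.05, 21 genes were higher and 0 lower, against 5.55% of all probe sets and 4.92% of genes higher. That count was 8, 10 and 13 with GFP-alone replicate 1, 2 or 3 left out, and 10 and 7 with FOG1 replicate 2 or 3 left out. The smallest limma adjusted p of any member was 0.18, for Nuf2. For that gene it was 0.092 without dim probe sets, 0.0996 over probe sets of 1 symbol and 0.093 when probe sets were averaged. In 26 of the 39 genes the 3 FOG1 arrays all lay above the 3 GFP-alone arrays, against 9.13% of all probe sets and 10.2% of genes. In 0 of the 39 they lay all below, as they did for 3634 of all 34760 probe sets.

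**Figure D1:**
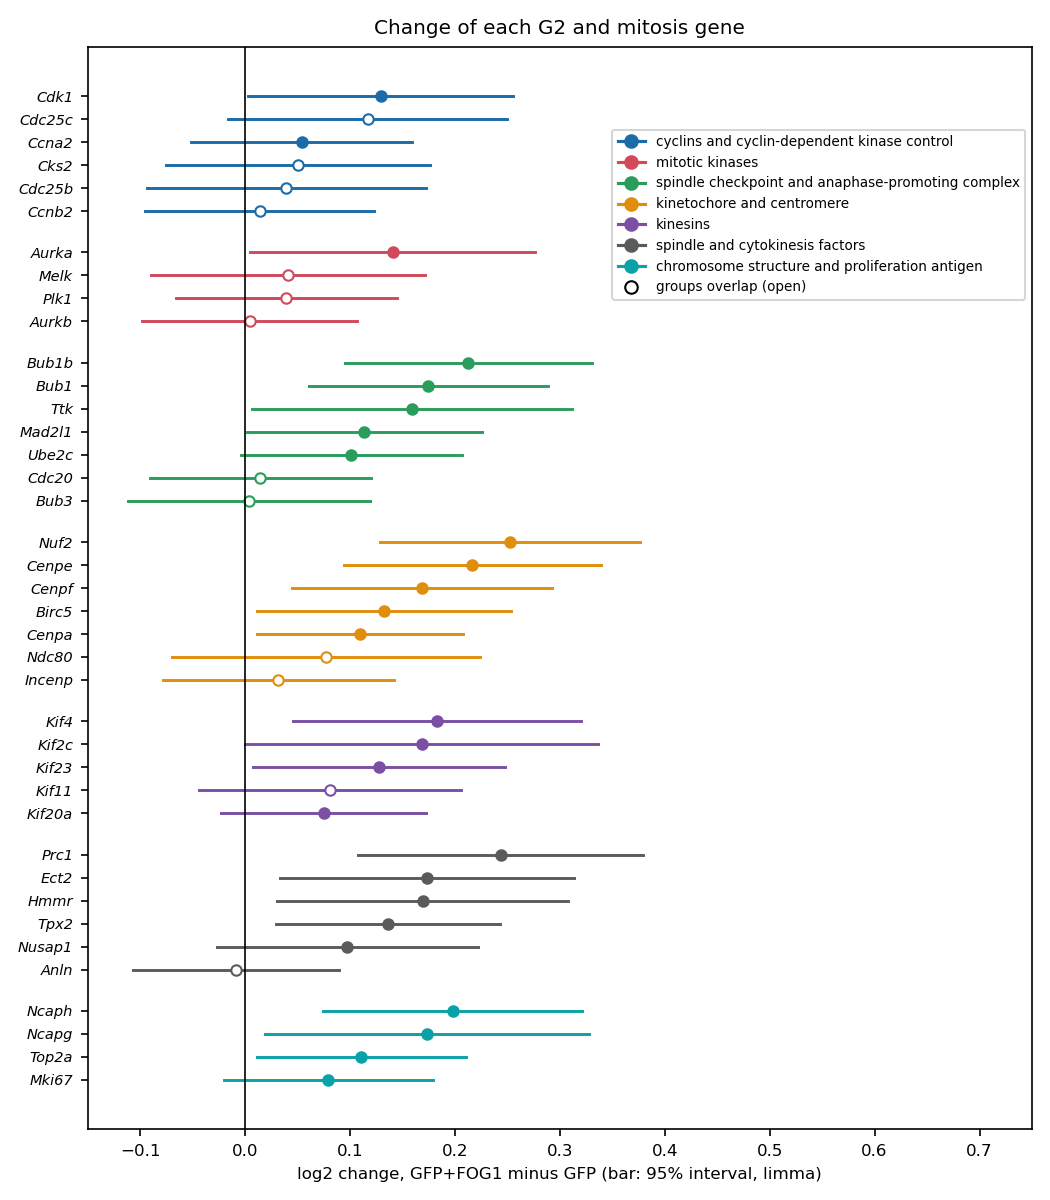
Log2 change of each of the 39 G2 and mitosis genes (FOG1 minus GFP alone, 3 arrays each), with the 95% interval from limma as a bar and genes grouped by role. Filled points mark the 26 genes whose groups did not overlap and open points the 13 whose groups did, and 21 intervals lie above 0 with no adjustment for the number of tests.

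Promoter sequences are shown for 6 of the genes, to set the shared element beside the changes: Prc1, Cdk1, Ube2c and Kif11 with log2 changes of 0.24, 0.13, 0.10 and 0.08, Cdc20 with 0.014, and Nuf2, which had the largest change. Each line gives the 100 bases before the transcription start in RefSeq (build GRCm38.p6; for Prc1 the second of its listed starts), read 5′ to 3′ on the gene's strand. Capitals mark matches to the cell cycle homology region, TTTGAA or TTCGAA, and to the CCAAT box, on either strand, so that a box on the other strand reads ATTGG and a homology region TTCAAA.
Prc1, chr7:80294376-80294475, plus strand: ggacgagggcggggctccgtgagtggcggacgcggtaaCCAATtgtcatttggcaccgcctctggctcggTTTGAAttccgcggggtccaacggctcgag
Cdk1, chr10:69352913-69353012, minus strand: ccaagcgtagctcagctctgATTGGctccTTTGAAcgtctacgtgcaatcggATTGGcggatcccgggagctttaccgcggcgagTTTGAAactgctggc
Ube2c, chr2:164769829-164769928, plus strand: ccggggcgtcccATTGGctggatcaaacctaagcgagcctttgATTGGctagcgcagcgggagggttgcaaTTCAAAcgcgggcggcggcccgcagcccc
Kif11, chr19:37376282-37376381, plus strand: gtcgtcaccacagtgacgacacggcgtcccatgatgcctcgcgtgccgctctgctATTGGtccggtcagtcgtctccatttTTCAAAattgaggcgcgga
Cdc20, chr4:118437344-118437443, minus strand: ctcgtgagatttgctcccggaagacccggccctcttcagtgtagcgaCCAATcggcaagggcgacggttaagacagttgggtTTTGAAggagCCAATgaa
Nuf2, chr1:169531465-169531564, minus strand: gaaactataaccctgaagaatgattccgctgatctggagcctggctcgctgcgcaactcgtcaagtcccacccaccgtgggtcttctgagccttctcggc

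Prc1 and Cdc20 both carry a CCAAT box followed by TTTGAA, with 27 bases between them in Prc1 and 30 in Cdc20, while their log2 changes were 0.24 and 0.014. In Cdk1 the box on the other strand ends 28 bases before the TTTGAA nearest the start. The Nuf2 window holds neither element.

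In the table of RefSeq promoters, which runs from 250 bases before to 50 after the start, 34 of the 40 genes had an entry, with 37 promoters. A homology region match lay in 28 of the 37 (75.7%), against 19.2% of all 32851 promoters and 17.6% of those of protein-coding genes. A CCAAT box lay in 28 promoters (75.7%, against 37.4% of all), and both lay in 25 (67.6%, against 7.53%). Homology region matches sat near the start, 26 of 38 (68.4%) within 50 bases of it, against 25.2% of 7260 matches in all promoters. With 25 to 35 bases between a CCAAT box and a homology region after it, a spacing chosen after the matches were seen, the pair was found in 11 of 37 promoters (29.7%), of 8 genes, against 0.493% of all. The E2F sequences TTTGGCGC and TTTCCCGC were found in 0 and 1 of the 37 (0% and 2.70%, against 0.514% and 1.07% of all). Counts this small do not show a lack of either. The GATA sequence AGATAA was found in 2 (5.41%, against 11.2% of all). Both strands were searched, and TTCGAA, which reads the same on both, was counted once.

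The medians of genes with and without a match were close, and their difference was not tested. The 25 measured genes with a homology region had a median log2 change of 0.13 and ran from -0.0089 to 0.24, and the 8 without one had 0.12 and ran from 0.04 to 0.25. With both elements the median was 0.13 over 22 genes, and 0.11 over the other 11. A match describes letters in this window and not a bound site. The genes with no promoter entry were Ccna2, Cdc25c, Aurkb, Incenp, Kif20a and Tpx2.

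**Figure D2:**
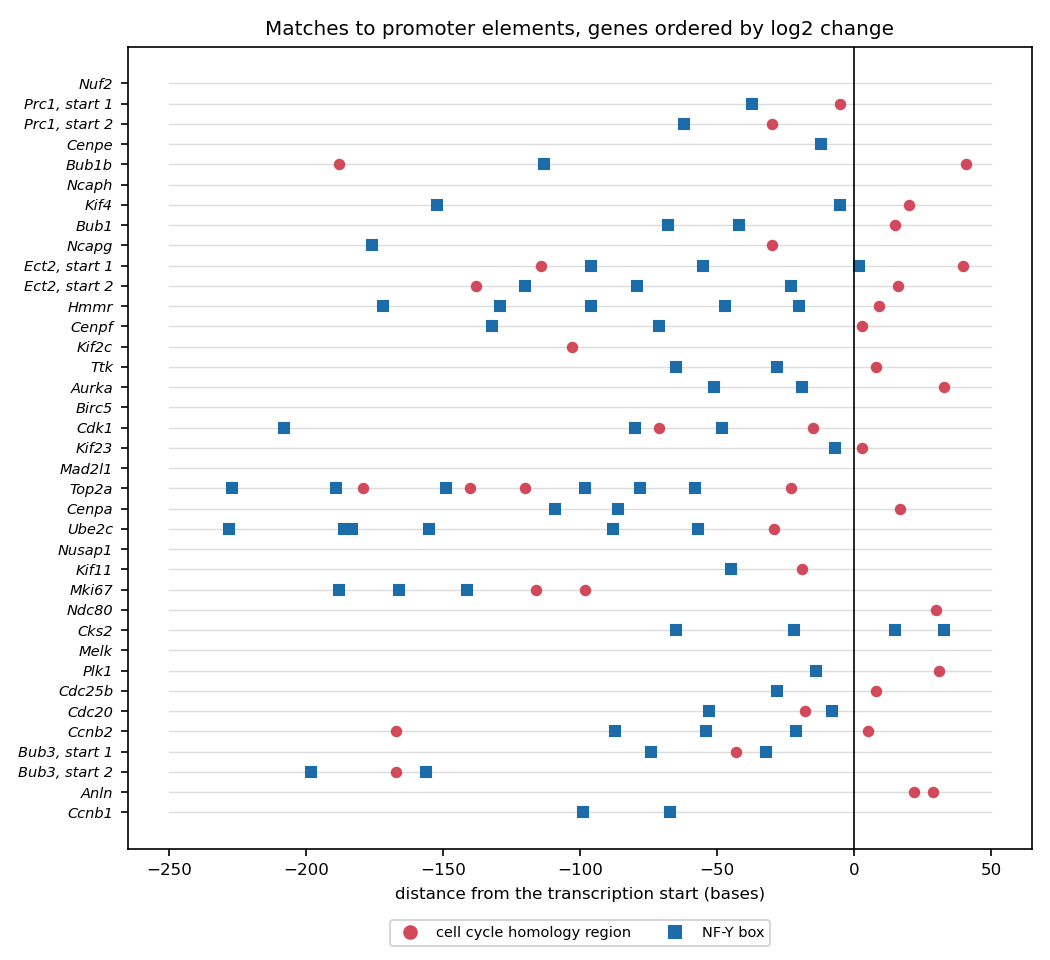
Positions of matches to the cell cycle homology region (circles) and the NF-Y box (squares) in 37 RefSeq promoters of 34 genes, in bases from the transcription start at 0, with genes ordered from the largest log2 change (Nuf2) to the smallest (Anln) and the unmeasured Ccnb1 last. Of 38 homology region matches 26 lie within 50 bases of the start, in genes with large and with small changes.

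Among the cyclins and regulators of the cyclin-dependent kinase, 6 of 7 genes were measured and none passed. Their median log2 change was 0.05. Cdk1, the kinase that drives cells into mitosis, read 11.13, 11.23 and 11.28 with GFP alone and 11.33, 11.34 and 11.36 with FOG1. The FOG1 arrays lay just above the others, by 0.13 on the log2 scale (SE 0.052; limma adjusted p = 0.39). Ccna2, which encodes the cyclin of S phase and G2, read 12.31, 12.30 and 12.31 against 12.33, 12.41 and 12.35. These values did not overlap either, although the difference was 0.05 (SE 0.044; limma adjusted p = 0.64), and 0.03 without FOG1 replicate 2 or after quantile normalization. Cdc25c, a phosphatase that removes inhibitory phosphates from the kinase, read 8.04, 7.91 and 7.89 against 8.04, 8.08 and 8.07, and GFP-alone replicate 1 lay among the FOG1 values (log2 change 0.12). The mitotic cyclin gene Ccnb2 had a log2 change of 0.014, with an interval from -0.095 to 0.12, and its sign turned under cyclic loess and without GFP-alone replicate 1. Cdc25b, a second such phosphatase, had 0.04, which became -0.0009 without GFP-alone replicate 3. Cks2, a small subunit that binds the kinase, had 0.05. The 2 dimmer probe sets of Cks2 gave 0.11 and 0.15, and neither passed. Where the probe sets of Cks2 lie in the genome was not checked. The median of this role was 0.03 after quantile normalization, 0.03 after cyclic loess and 0.08 without FOG1 replicate 1.

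The 4 mitotic kinases had a median log2 change of 0.04, and none passed. In 1 of the 4 the FOG1 arrays lay all above the others. That held for 16.4% of genes at or above the median signal and 25.3% of the 1994 brightest. Aurka, the Aurora kinase of spindle poles, read 9.41, 9.47 and 9.37 with GFP alone and 9.53, 9.50 and 9.64 with FOG1. It was the one gene of the 4 whose groups did not overlap (log2 change 0.14, SE 0.057; limma adjusted p = 0.39). Aurkb, the Aurora kinase of centromeres and the midzone, read 11.47, 11.47 and 11.41 against 11.45, 11.45 and 11.46. All 3 FOG1 values lay inside the range of the others, and the interval of the difference ran from -0.098 to 0.11, a difference whose sign turned under quantile normalization, under cyclic loess and without GFP-alone replicate 3. Plk1, the polo-like kinase of centrosomes and kinetochores, read 11.26, 11.22 and 11.18 against 11.25, 11.24 and 11.27, a log2 change of 0.04 with an interval from -0.066 to 0.15. That change was 0.0097 after quantile normalization, 0.06 without GFP-alone replicate 1 and 0.019 without GFP-alone replicate 3. Melk, a kinase whose transcript marks dividing cells, read 8.53, 8.58 and 8.54 against 8.57, 8.53 and 8.68. Its highest value was on FOG1 replicate 3, and its log2 change of 0.04 became -0.0022 without that array. The median of the 4 kinases was 0.02 after quantile normalization, 0.02 after cyclic loess and 0.07 after median centring. Leaving out GFP-alone replicate 3 gave 0.03, and leaving out FOG1 replicate 3 gave 0.02.

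All 7 spindle checkpoint and anaphase-promoting complex genes were measured, with a median log2 change of 0.11. Bub1b, whose product BUBR1 is part of the complex that inhibits anaphase, read 10.10, 10.19 and 10.17 with GFP alone and 10.31, 10.37 and 10.41 with FOG1. Its lowest FOG1 value lay clear of its highest GFP-alone value (log2 change 0.21, SE 0.049; limma adjusted p = 0.215). Bub1, the kinetochore kinase of the same checkpoint, read 10.76, 10.69 and 10.75 against 10.88, 10.89 and 10.96. The groups were again apart (log2 change 0.17, SE 0.047; limma adjusted p = 0.26). Ttk, the kinase MPS1 that starts the checkpoint signal, read 8.46, 8.38 and 8.43 against 8.47, 8.62 and 8.66. FOG1 replicate 1 lay next to the GFP-alone arrays here, and the log2 change was 0.16 (SE 0.063; limma adjusted p = 0.385). Mad2l1, which encodes the checkpoint protein MAD2, had a log2 change of 0.11, and Ube2c, the conjugating enzyme of the anaphase-promoting complex, 0.10, both with groups that did not overlap. Cdc20, the activator of that complex and the target of the checkpoint, had 0.014 with an interval from -0.091 to 0.12. Bub3, a scaffold of checkpoint complexes, had 0.0041 with an interval from -0.11 to 0.12. The sign of both turned under quantile normalization, under cyclic loess and without FOG1 replicate 3, and that of Bub3 also without GFP-alone replicate 2 or 3. Thus 5 of the 7 genes had FOG1 arrays all above the others, against 16.4% of genes at or above the median signal, and none of the 7 passed.

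The kinetochore and centromere genes, 7 of 7 measured, had a median log2 change of 0.13. Nuf2, a subunit of the NDC80 complex that grips spindle microtubules, read 9.24, 9.36 and 9.30 with GFP alone and 9.50, 9.57 and 9.59 with FOG1. This was the largest difference among the 39 genes, at 0.25 (SE 0.0515; limma adjusted p = 0.18), or 1.19-fold. Cenpe, a kinesin of kinetochores that moves chromosomes to the spindle's middle, read 9.50, 9.57 and 9.57 against 9.70, 9.77 and 9.81. Its 2 groups were apart by more than the spread within either (log2 change 0.22, SE 0.051; limma adjusted p = 0.22). Cenpf, a large protein of the outer kinetochore, read 9.03, 9.10 and 9.06 against 9.16, 9.24 and 9.29 (log2 change 0.17, SE 0.0515; limma adjusted p = 0.31). Birc5, which encodes survivin, and Cenpa, the centromeric histone, had log2 changes of 0.13 and 0.11 with groups that did not overlap. Ndc80, the partner of Nuf2, had 0.08 and Incenp, the scaffold that joins survivin to Aurora B, 0.03, both with groups that overlapped. None of the 7 passed.

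The 5 kinesins of the list, motors that walk along or take apart microtubules, had a median log2 change of 0.13. Kif4, the motor of chromosome arms and the spindle midzone, read 9.11, 9.19 and 9.25 with GFP alone and 9.31, 9.35 and 9.44 with FOG1. The FOG1 arrays were all higher (log2 change 0.18, SE 0.057; limma adjusted p = 0.31). Kif23, the motor of the centralspindlin complex, read 10.57, 10.54 and 10.51 against 10.61, 10.66 and 10.73 (log2 change 0.13, SE 0.050; limma adjusted p = 0.38). Kif2c, which takes apart wrongly attached microtubules, read 8.89, 8.97 and 8.94 against 8.97, 9.12 and 9.21. FOG1 replicate 1 lay just above the highest GFP-alone value there, and the log2 change was 0.17 (SE 0.070; limma adjusted p = 0.40). Kif11, which pushes spindle poles apart, had 0.08 with overlapping groups and Kif20a, a cytokinesis motor, 0.07 with groups that did not overlap. None of the 5 passed.

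Of the 6 spindle and cytokinesis factors, 5 had a log2 change above 0, the median was 0.15, and none passed. Prc1, the bundler of antiparallel microtubules in the midzone, read 9.42, 9.51 and 9.51 with GFP alone and 9.69, 9.67 and 9.81 with FOG1. It was second to Nuf2 in size (log2 change 0.24, SE 0.057; limma adjusted p = 0.22). Tpx2, which activates Aurora A on the spindle, read 10.22, 10.25 and 10.27 against 10.35, 10.38 and 10.42 (log2 change 0.14, SE 0.044; limma adjusted p = 0.32). Ect2, the exchange factor that switches on RhoA at the cleavage furrow, read 10.50, 10.50 and 10.55 against 10.59, 10.73 and 10.76. FOG1 replicates 2 and 3 stood above replicate 1 (log2 change 0.17, SE 0.058; limma adjusted p = 0.335). Hmmr, a microtubule-binding protein, had 0.17 and Nusap1, another, 0.10, neither with overlap. Anln, the scaffold of the contractile ring, was the one gene of the 39 below 0, at -0.0089 with an interval from -0.11 to 0.09, and it lay above 0 after median centring and without FOG1 replicate 2.

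The 4 genes of chromosome structure and proliferation had a median log2 change of 0.14, all 4 had groups that did not overlap, and none passed. Ncaph, the kleisin subunit of condensin I, which compacts mitotic chromosomes, read 10.85, 10.81 and 10.83 with GFP alone and 10.95, 11.04 and 11.09 with FOG1. The GFP-alone values lay close together and the FOG1 values further apart (log2 change 0.20, SE 0.051; limma adjusted p = 0.24). Ncapg, another subunit of condensin I, read 9.64, 9.66 and 9.76 against 9.77, 9.85 and 9.96 (log2 change 0.17, SE 0.064; limma adjusted p = 0.36). Top2a, the topoisomerase that untangles sister chromatids, read 11.45, 11.45 and 11.46 against 11.54, 11.59 and 11.57. These groups were narrow and apart, by 0.11 on the log2 scale (SE 0.041; limma adjusted p = 0.365). Mki67, the gene of the proliferation antigen Ki-67, read 12.24, 12.24 and 12.26 against 12.31, 12.31 and 12.36. The groups were apart by 0.08 (SE 0.041; limma adjusted p = 0.47). The second probe set of Top2a was dim, at percentile 10.7 of GFP-alone signals, and did not pass either. Beside the counts of groups that did not overlap, 16.4% of genes at or above the median signal had FOG1 arrays all above the others. Differences between the 7 roles were not tested.

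**Figure D3:**
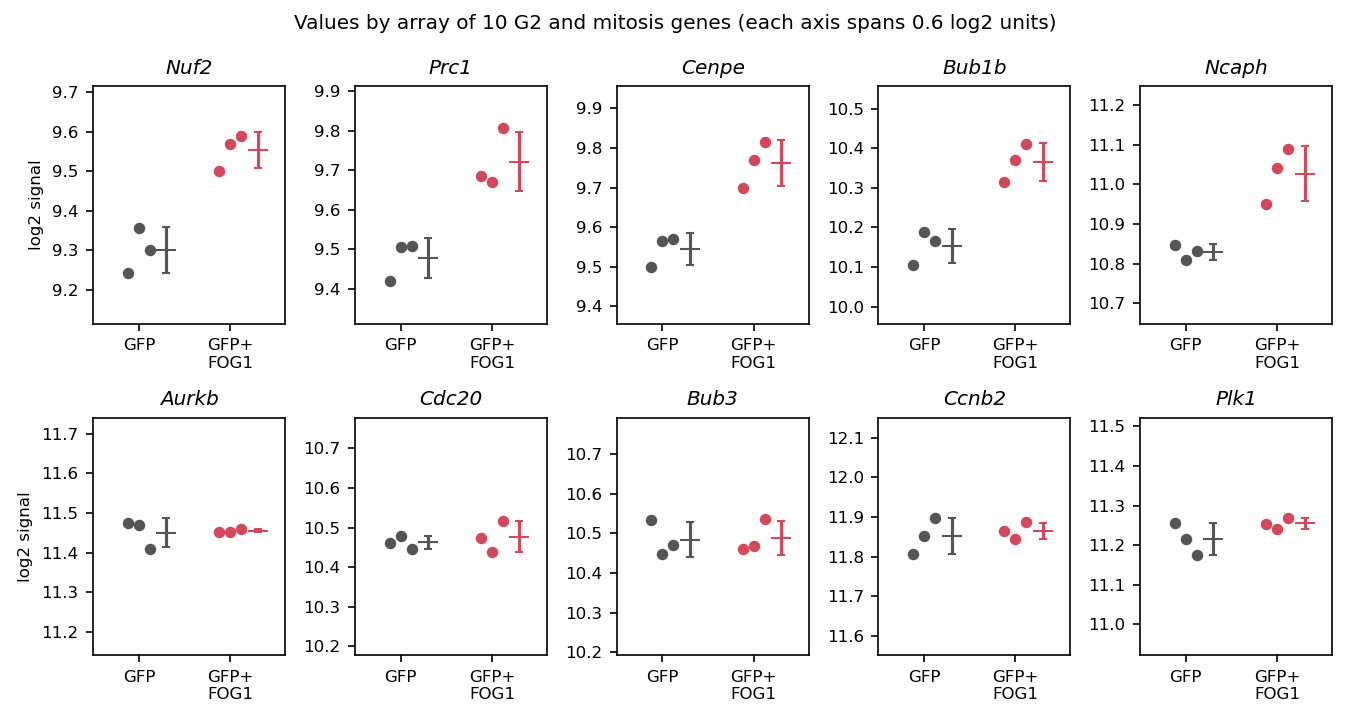
Log2 signal on each array for 10 genes, with points for the 3 GFP-alone and 3 FOG1 arrays, bars for the mean ± SD, and vertical axes that all span 0.6 log2 units. In the upper row (Nuf2, Prc1, Cenpe, Bub1b, Ncaph) the groups do not overlap, and in the lower row (Aurkb, Cdc20, Bub3, Ccnb2, Plk1) they do.

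The genes were bright, and bright genes as a whole had slightly higher values with FOG1. All 39 lay above the median signal of all probe sets, between percentiles 64.7 and 99.0 of GFP-alone signals. Among 10582 genes at or above the median signal, taken at 1 probe set each, 56.3% had a log2 change above 0, 7.88% were higher at an unadjusted p under 0.05 and 16.4% had FOG1 arrays all above the others. Among the 1994 brightest genes, which held 23 of the 39, the median log2 change was 0.03, and 67.8% of genes were above 0. There 25.3% of all genes had FOG1 arrays all above the others, as did 15 of the 23 members. Among the 1994 genes next in signal the share was 21.1%, and it held for 6 of 8 members. Within the list the dimmest 13 genes had a median of 0.16, the middle 13 of 0.10 and the brightest 13 of 0.10. Measured after cyclic loess, which removes a shift that follows signal level, the median of the list was 0.09.

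**Figure D4:**
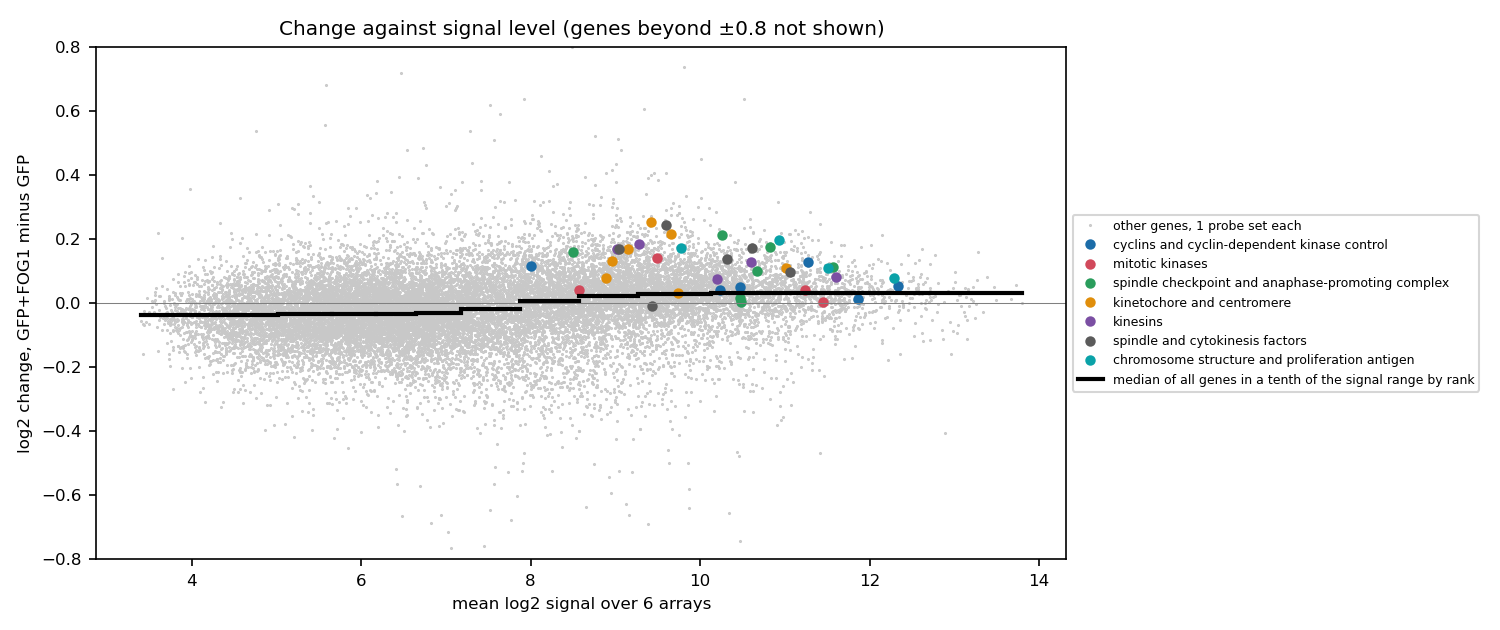
Log2 change (FOG1 minus GFP alone) against mean log2 signal over the 6 arrays for all genes at 1 probe set each (grey) and the 39 G2 and mitosis genes (coloured by role), with black lines at the median of each of 10 equal classes of genes by signal. The black line is at -0.04 in the dimmest class and 0.03 in the brightest, and the median of the 39 genes is 0.11.

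The difference was not even across the FOG1 arrays. Each gene's value was taken relative to its own mean over the 6 arrays, and the median over the 39 genes was -0.06, -0.05 and -0.04 on GFP-alone replicates 1, 2 and 3. On the FOG1 arrays it was 0.016 for replicate 1, 0.07 for replicate 2 and 0.09 for replicate 3. All genes at or above the median signal had medians between -0.02 and 0.02 on the 6 arrays. FOG1 replicate 3 was the highest of the 6 arrays for 28 of the 39 genes, and replicate 1 was the lowest of the 3 FOG1 arrays for 26. On FOG1 replicate 1, 30 of the 39 genes lay above all 3 GFP-alone values, as did 30 on replicate 2 and 35 on replicate 3. The matching shares over all genes were not computed for these counts by array, so the counts cannot be set against a general rate. The median log2 change was 0.14 without FOG1 replicate 1 and 0.10 without FOG1 replicate 3. Zfpm1 itself differed little between the FOG1 arrays (10.16 to 10.21).

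The median of the 10 stromal markers ran in the opposite order over the FOG1 arrays, at 0.21, -0.0078 and -0.30 relative to each gene's own mean. The 2 with the widest spread over the FOG1 arrays are given as examples, chosen after their values were seen. Pdgfrb, a receptor of fibroblasts and pericytes, read 8.97, 8.59 and 7.60 on FOG1 replicates 1, 2 and 3, against 8.42 to 8.65 with GFP alone. Col1a1, a collagen chain, read 9.90, 9.61 and 8.99, against 9.53 to 9.73. Some of the 10 did not follow that order, among them Thy1 at 8.38, 8.29 and 8.43 and Dcn at 5.84, 5.79 and 5.92. The FOG1 values of Thy1 lay all below those with GFP alone (log2 change -0.29; limma adjusted p = 0.28). The summed signal of the 10 stromal markers ran from 11780 to 12470 with GFP alone and from 10100 to 12410 with FOG1 on the linear scale, ranges that overlap, and none of the 10 passed. Vim made up 77.3% of that sum. Without it the sum read 2626, 2854 and 2804 with GFP alone and 3180, 2639 and 1942 on FOG1 replicates 1, 2 and 3, so that the FOG1 arrays lay on both sides of the others. Their part in the result was not tested. The other marker lists were summed in the same way. T and NK cell markers ran from 662 to 685 against 635 to 689, myeloid markers from 1232 to 1408 against 1241 to 1263, and erythroid and megakaryocyte markers from 497 to 516 against 489 to 542. B-cell markers ran from 51450 to 52930 against 48140 to 50390, which do not overlap. The median log2 change of the 15 was -0.0034, with 7 above 0. In 3 of them, Cd79a and Cd79b, chains of the B-cell receptor, and Ms4a1, the FOG1 arrays lay all below the others, and in 2, Il7r and Rag2, all above. Over all 19937 genes, 2097 lay all below and 2040 all above. Those 3 B-cell markers were picked for their lower values, so leaving them out favours overlap. The sum of the rest ran from 32760 to 33900 against 33000 to 34850, which does not show that the other markers were equal. Cd79a had the lowest log2 change at -0.41, with a limma adjusted p of 0.088 that was 0.0435 without dim probe sets, 0.0356 over those of 1 symbol, 0.0273 under a variance trend and 0.0378 when probe sets were averaged.

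**Figure D5:**
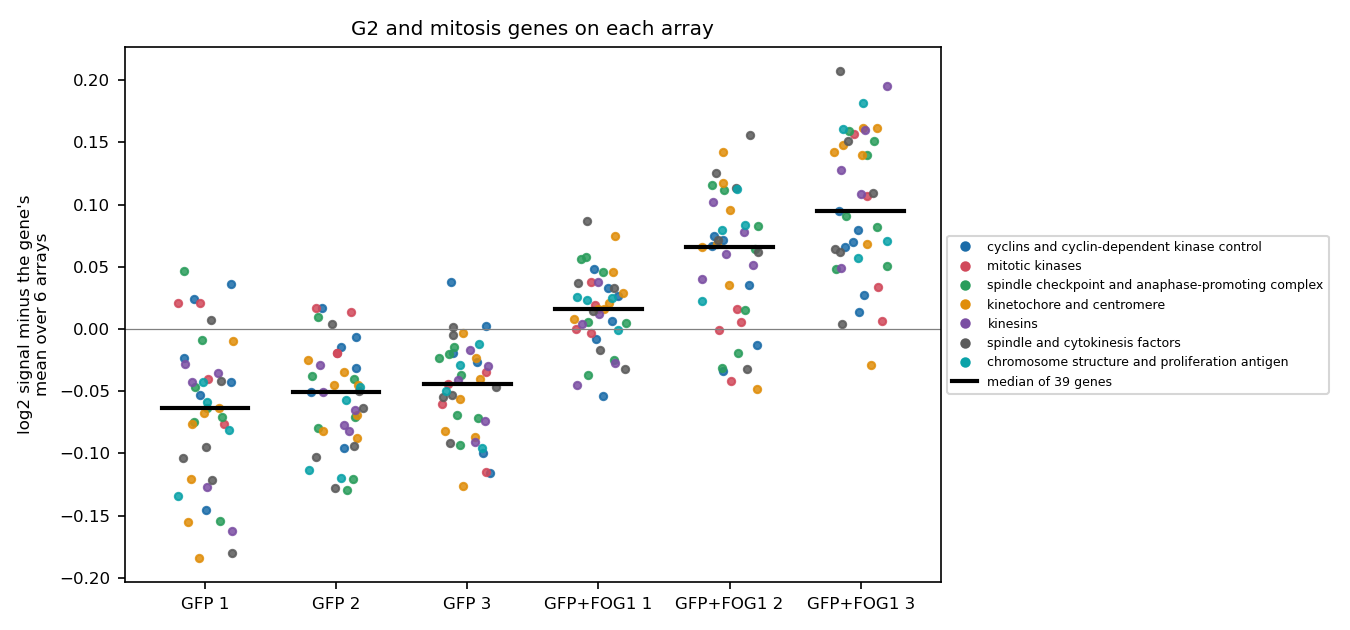
Value of each of the 39 genes on each array, as log2 signal minus the gene's own mean over the 6 arrays, coloured by role, with a bar at the median. The 3 medians with GFP alone lie between -0.06 and -0.04, and those with FOG1 are 0.016, 0.07 and 0.09, nearest to the others at replicate 1.

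Other genes of mitosis, listed with earlier results of these data known, gave similar counts. Of 70 such genes 66 were measured, 62 had a log2 change above 0, and the median was 0.12. None passed in the test over all probe sets, 35 were higher at an unadjusted p under 0.05, and 45 had FOG1 arrays all above the others. Over all genes these shares were 4.92% and 10.2%, and over genes at or above the median signal, where 65 of the 66 lay, 7.88% and 16.4%. Kif14, a kinesin of the midbody, had the largest change. It read 8.90, 8.74 and 8.83 with GFP alone and 9.21, 9.36 and 9.35 with FOG1. The groups lay far apart, by 0.48 on the log2 scale (SE 0.065) or 1.39-fold. Its limma adjusted p was 0.073 over all probe sets, 0.037 when dim probe sets were left out, 0.0255 when 1-symbol probe sets alone were tested and 0.041 with a variance trend. Spc25, a subunit of the NDC80 complex, differed by 0.42 (limma adjusted p = 0.128). Pttg1, which encodes securin, the inhibitor of separase, had 0.30 (limma adjusted p = 0.15) and the kinesin gene Kif18b 0.19 (limma adjusted p = 0.23).

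Genes that control the programme also had small changes, none of which passed. Those named below had the smallest unadjusted p of their list, apart from Sfn. Of 18 anaphase-promoting complex subunits and regulators 14 were above 0 and 7 had FOG1 arrays all above the others, with a median of 0.08. The share of such genes was 10.2% over all genes and 16.4% at or above the median signal. Cdc23 and Cdc16, both subunits, had log2 changes of 0.28 and 0.17, the small subunit gene Anapc13 0.19 and Fbxo5, the inhibitor EMI1, 0.14. Of 23 measured transcriptional regulators 21 were above 0 and 11 had FOG1 arrays all above the others, against the same shares, with a median of 0.07. Lin9, of the core shared by the DREAM and B-MYB complexes, had 0.28, Rbl1, the pocket protein p107, 0.19, and Foxm1 and the NF-Y subunit gene Nfyb 0.14 each. The 20 measured genes of the G2 checkpoint and mitotic exit had a median of 0.09, with 15 above 0. In 8 of them the FOG1 arrays lay all above the others, against the same shares. In 2 of the 20 they lay all below, as they did for 2097 of all 19937 genes, and a departure from that general rate was not tested. These 2 were Gadd45b, a stress-response gene, at -0.17 and Sfn, which encodes a 14-3-3 protein, at -0.11 (named after its value was seen). Mastl, the kinase Greatwall that holds phosphatase PP2A in check in mitosis, was at 0.21, the PP2A subunit gene Ppp2r2d at 0.19 and the checkpoint kinase gene Atr at 0.18. The limma adjusted p of these genes ran from 0.158 (Cdc23) to 0.485 (Sfn).

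Genes of the preceding phase gave nearly the same median. Of 44 genes of DNA replication and S phase, 43 were measured, 42 had a log2 change above 0, the median was 0.10, and none passed. At an unadjusted p under 0.05, 10 were higher, and 21 had FOG1 arrays all above the others, against 7.88% and 16.4% of genes at or above the median signal, where all 43 lay. Mcm3, of the replicative helicase, had 0.26, the cyclin gene Ccne2 0.27, the helicase component gene Gins1 0.20 and Slbp, which binds histone messenger RNA, 0.24 (limma adjusted p = 0.154 to 0.24). Their medians by array followed the same order, at -0.0007, 0.05 and 0.10 on FOG1 replicates 1, 2 and 3. Whether the mitosis and replication genes differ in their change was not tested.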

How the data were processed

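Total RNA (100 ng, per the labels' protocols) was amplified with a whole-transcript kit and hybridised to Affymetrix mouse gene arrays, 1 array for each of 6 samples. The deposited values are the authors' log2 signals, 1 per probe set and array. Of the software, affy is named in the submitters' processing notes. Background correction, normalization and summary steps are not given in the sources used. The log2 scale was read from the values, 3.12 to 14.07 with array medians of 6.98 to 7.04. If arrays were forced to 1 distribution, a shift common to most genes would not be seen, and 3 arrays a group limit the precision.

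Groups were taken from sample titles. All 34760 probe sets, with no filter, entered limma 3.58.1 (R 4.3.3; lmFit, eBayes, no block), with Benjamini-Hochberg adjustment and a threshold of 0.05. Changes are FOG1 minus GFP alone, SE are moderated, intervals are 95% and unadjusted, and the fit was tested on simulated data. The annotation gave 1 symbol for 21640 probe sets, several for 1321 and none for 11799, and Entrez identifiers changed 0 symbols. The genes and lists were chosen with earlier results of these data known. Values by array are given for Cdk1, Aurkb, Top2a, Mki67 and the 3 genes of each role with the smallest p. From each other list the report names up to 4 genes with the smallest unadjusted p, so they are not typical of their list. This leaves aside markers and genes said to be named after their values were seen. Alternatives were quantile normalization, median centring, leaving out dim or unnamed probe sets, a replicate block, a variance trend, array weights, each array left out, averaging the probe sets of a gene and a threshold of 0.10. Added after seeing the data were cyclic loess and promoter windows of the 250 bases before the start alone. So were marker sums without Vim, or without Cd79a, Cd79b and Ms4a1. Figures used matplotlib 3.10.9.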

Additional observations from a re-analysis of the deposited data

How the results depend on the processing

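In none of the 16 alternatives run was any of the 39 G2 and mitosis genes called (Kif14, of the other mitosis genes, was in some), and the median log2 change ran from 0.09 (cyclic loess) to 0.14 (median centring). The number of genes higher at an unadjusted p under 0.05 was 12 with the replicate block and 7 to 20 without 1 array, against 21. Over all probe sets 78 were called, 147 at an adjusted p under 0.10, 9 with the replicate block and 17 to 38 without 1 array. The median of the cyclins and kinase regulators, 0.052, was 0.028 after quantile normalization, 0.031 after cyclic loess, 0.078 after median centring, 0.078 with the mean over probe sets and 0.038 to 0.081 without 1 array. The sign of the log2 change turned for 7 of the 39 genes and for no other member, all with a change of at most 0.041 in size. After quantile normalization it did for Aurkb (-0.0023), Cdc20 (-0.007) and Bub3 (-0.0167), after cyclic loess for Aurkb (-0.018), Ccnb2 (-0.007), Cdc20 (-0.0099) and Bub3 (-0.0202), and after median centring for Anln (0.0167). With single arrays left out the ranges were -0.0166 to 0.0159 for Aurkb, -0.0022 to 0.0722 for Melk, -0.0009 to 0.0658 for Cdc25b, -0.009 to 0.0364 for Ccnb2, -0.0184 to 0.005 for Anln, -0.006 to 0.0336 for Cdc20 and -0.0201 to 0.0284 for Bub3. Among markers they were -0.0654 to 0.0023 for Klf1, -0.0149 to 0.0182 for Pax5, -0.4422 to 0.2436 for Pdgfrb and -0.3491 to 0.1035 for Col1a1, and Pax5 was at -0.0269 after quantile normalization and -0.0168 after cyclic loess. Ccna2, Cks2, Kif20a, Kif11, Ndc80, Incenp and Plk1 kept their sign and moved by over 1.5 times under at least 1 alternative. The cause of these moves was not tested. Zfpm1 kept its direction and missed the threshold with the replicate block (adjusted p = 0.0975). Deviations of arrays that share a replicate number had correlations of -0.07, 0.0084 and -0.04, and in 0 of 6 cases was the same number the best match, so no pairing was assumed. In the 250 bases before the start alone, 15 of 37 promoters held a homology region (40.5%, against 17.1% of all). No pseudocount was used, because the values are on the log2 scale.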

Other observations

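Protein complexes were set side by side after their values were seen, as a description with no test. In the NDC80 complex, whose 4 subunits act in equal numbers, the log2 changes were 0.42 for Spc25, 0.25 for Nuf2, 0.17 for Spc24 and 0.08 for Ndc80. Knl1, the kinetochore scaffold that recruits the BUB proteins, was at 0.18. The chromosomal passenger complex was mixed, with Birc5 at 0.13 and Cdca8 at 0.13, Incenp at 0.03 and Aurkb at 0.0043. In condensin, Ncaph was at 0.20, Smc2 at 0.19, Ncapg at 0.17, Smc4 at 0.16 and Ncapd2 at 0.07, while the condensin II genes Ncapg2, Ncapd3 and Ncaph2 were at 0.21, 0.15 and 0.07. At the spindle midzone, Kif14 was at 0.48, Prc1 at 0.24, Kif4 at 0.18, Ect2 at 0.17, Kif23 at 0.13 and Racgap1 at 0.10, and the citron kinase gene Cit was at 0.04. None of these genes passed in the test over all probe sets.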
